A study of Mus musculus with 9 samples.

Results

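Embryonic cardiac fibroblasts were compared with embryonic cardiomyocytes across 19933 genes, using the 3 arrays of each cell type. These are 6 of the 9 samples of the series. The samples were picked by their titles. The comparison itself and the gene lists, however, were chosen with earlier results of these data known. The cardiomyocytes were mouse embryonic heart cells positive for an Nkx-YFP reporter, a yellow fluorescent protein tied to the cardiac lineage gene Nkx2-5. The fibroblasts were isolated from the embryonic heart. The remaining 3 samples were adult cardiac fibroblasts, which entered the model only to help estimate the spread. The labels name no treatment. The sources used here do not give the embryonic stage, strain or sex, the sorting or culture of the fibroblasts, or any pooling of embryos. The design text calls the arrays of a group biological replicates, but nothing says that they came from separate litters, so the p-values measure the spread between these samples only. Total RNA was hybridised to Affymetrix mouse Gene 1.0 ST arrays, whose probes lie along the whole transcript. Values are RMA values on a log2 scale, so a difference of 1 is a 2-fold difference. All differences are fibroblast minus cardiomyocyte, with the standard error (SE) of a limma model and n = 3 arrays per group. Values of a group are listed in the order of replicates 1 to 3, and that order carries no meaning.

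In the embryonic heart, cardiomyocytes contract by sarcomeres tied to the membrane at the costamere, carry the action potential inward through T-tubules once mature, and draw most of their energy from mitochondria. Fibroblasts lie between them. They build the matrix, receive and send growth factors and cytokines, and descend largely from the epicardium and the endocardium. Because each array holds the RNA of a whole preparation, fewer cells of a type and less RNA per cell cannot be told apart in any value below.

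Marker genes were read first and set beside the labels. As their lists were chosen with earlier results of these data known, they are not an independent check. Over all genes limma called 10.3% higher and 11.1% lower in fibroblasts at an adjusted p under 0.05 (Benjamini-Hochberg), and counts of markers and lists are read against these shares. All 13 fibroblast markers were higher in the fibroblast samples and 11 of 15 cardiomyocyte markers were lower. The mean of the cardiomyocyte markers was 12.20, 12.19 and 12.10 in the cardiomyocyte arrays, 11.08, 10.71 and 11.31 in the embryonic fibroblast arrays and 7.89, 8.23 and 7.97 in the adult fibroblast arrays. The embryonic fibroblast samples thus carried a cardiomyocyte signal that lay nearer to the cardiomyocytes than to adult fibroblasts. The troponin gene Tnnt2 stood at 13.88, 13.77 and 13.81 in cardiomyocytes and 13.43, 13.26 and 13.44 in fibroblasts, a difference of -0.44 ± 0.27 that was not called by limma (adjusted p = 0.328). Nkx2-5, the gene behind the reporter, differed by -0.05 ± 0.10 (limma adjusted p = 0.813). Over the 15 cardiomyocyte markers the differences ran from -1.86 (Actn2) to -0.05 (Nkx2-5), with a median of -1.22.

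Markers of other cell types differed as well. Of 15 endothelial and endocardial markers 11 were higher in the fibroblast samples, a count that was 6 without fibroblast replicate 1 or 2, 5 without cardiomyocyte replicate 2 and 7 without cardiomyocyte replicate 3. Their mean was 8.53, 8.23 and 8.32 in cardiomyocytes and 9.53, 9.58 and 9.17 in fibroblasts, and the VE-cadherin gene Cdh5 differed by 1.83 ± 0.37. Of 15 macrophage markers 9 were higher, a count that was 4 without fibroblast replicate 1 or 3 or cardiomyocyte replicate 1 or 2 and 5 without cardiomyocyte replicate 3. The macrophage means were 7.57, 7.48 and 7.56 in cardiomyocytes and 8.32, 8.11 and 8.47 in fibroblasts. Epicardial markers were higher in 5 of 12 cases. Platelet markers were higher in 2 of 6, a count that was 1 without fibroblast replicate 1 or 2 or cardiomyocyte replicate 1, 2 or 3 and 4 without fibroblast replicate 3, and their means were 7.64, 7.79 and 7.79 in cardiomyocytes and 8.60, 8.74 and 7.98 in fibroblasts. Of 9 erythroid markers 4 were lower in the fibroblast samples. These were the embryonic globins Hba-x (-1.74 ± 0.11), Hbb-y (-1.44 ± 0.14) and Hbb-bh1 (-1.16 ± 0.11), which primitive red cells express, and the transferrin receptor Tfrc (-1.24 ± 0.19), which other dividing cells also express. The remaining 5 lay between -0.01 (Klf1) and 0.45 (Rhag) without being called, and the median of the list was -0.01. RMA values have no zero, so a marker cannot be said to be absent. The part of these other cells in the results below was not tested.

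**Figure D1:**
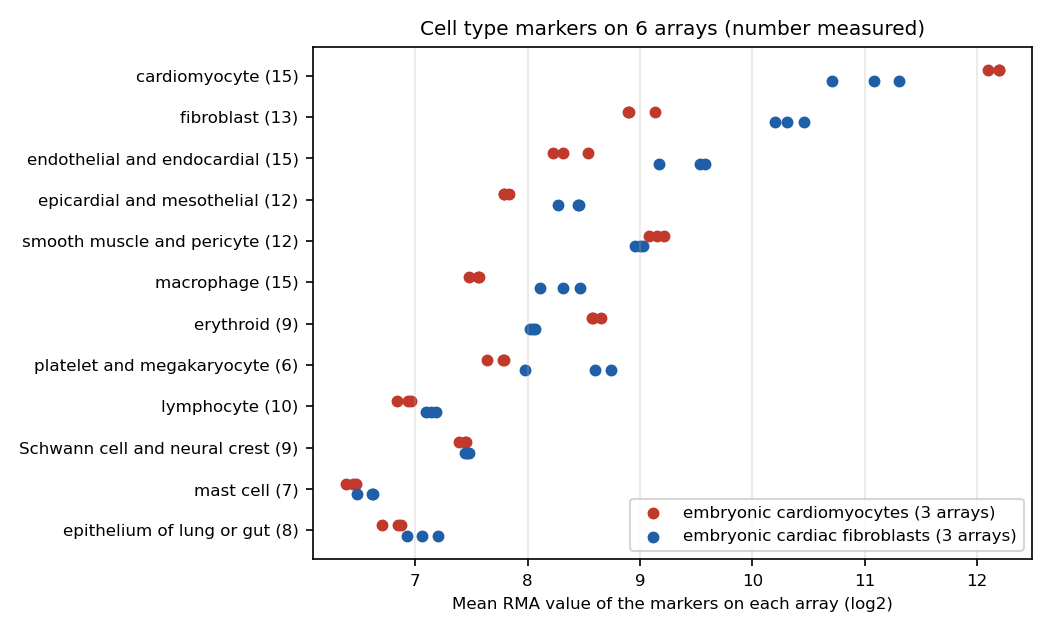
Mean RMA value (log2, x axis) of 12 cell type marker lists on each of the 6 embryonic arrays, with 1 point per array and the number of markers measured in brackets. The cardiomyocyte, erythroid and smooth muscle lists lie lower on all 3 fibroblast arrays than on any cardiomyocyte array, the Schwann cell list overlaps, and the other lists lie higher, by little for lymphocyte, mast cell and epithelial markers.

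Genes that mark the sex of an embryo were read as a check. The Y-linked gene Eif2s3y read 8.51, 9.33 and 8.99 in cardiomyocytes and 8.43, 8.51 and 8.53 in fibroblasts. Xist, which is transcribed from the inactive X chromosome, read 11.16, 10.49 and 10.75 in cardiomyocytes and 10.84, 10.86 and 11.04 in fibroblasts. As RMA values have no zero, these readings alone cannot show the sex of the embryos behind any array. Over the 4 genes of this list the limma adjusted p-values ran from 0.125 for Uty to 0.732 for Xist, although 3 of them were called lower without cardiomyocyte replicate 1.

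Fibroblast replicate 3 stood apart from replicates 1 and 2. Among the 492 genes that were called and at least 2-fold lower in fibroblasts (2.47% of all genes), replicate 3 was the fibroblast array nearest to the cardiomyocytes in 440 genes, replicate 1 in 29 and replicate 2 in 3, and in 20 genes the nearest arrays had the same value. The median difference of those genes from the cardiomyocyte mean was -1.33 in replicate 1, -1.47 in replicate 2 and -0.98 in replicate 3. Among the 521 genes that were called and at least 2-fold higher (2.61%), replicate 3 was nearest in 280, replicate 1 in 88 and replicate 2 in 132, and 21 were tied. Their median differences were 1.38, 1.36 and 1.26. Over all 19933 genes replicate 3 was the highest fibroblast array in 6012 (30.2%) and the lowest in 8159. The excess over these shares was thus much smaller among the higher genes than among the lower genes. The myosin heavy chain gene Myh7 showed the pattern of the lower genes. It read 10.92, 10.55 and 11.41 in fibroblasts against 12.63, 12.58 and 12.37 in cardiomyocytes. The SD among the 3 arrays exceeded 0.5 for 197 genes in fibroblasts and for 36 in cardiomyocytes.

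Interferon and chemokine genes led the genes that varied most among the fibroblast arrays. Ifnb1, which encodes interferon beta, read 6.21, 6.57 and 9.34 in fibroblasts and 6.28, 6.15 and 6.22 in cardiomyocytes, so that the signal above the cardiomyocyte level lay in replicate 3. The chemokine gene Ccl3 read 8.33, 8.02 and 10.75 in fibroblasts against 7.06, 6.97 and 7.12, and Cxcl10, an interferon-induced chemokine gene, 8.44, 8.58 and 10.84 against 7.01, 7.14 and 7.23. A further pair of these genes was lowest in replicate 3. Adh1, an alcohol dehydrogenase that can oxidise retinol, read 8.98, 10.56 and 7.49 in fibroblasts, and Ppbp, a platelet chemokine gene, read 9.50, 10.34 and 7.92. For both, replicate 3 lay within the range of the cardiomyocytes, 7.14 to 7.61 for Adh1 and 7.48 to 7.99 for Ppbp. Of these 5 genes limma called only Cxcl10, and without cardiomyocyte replicate 1, 2 or 3 that call was lost too (highest adjusted p = 0.0926).

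**Figure D2:**
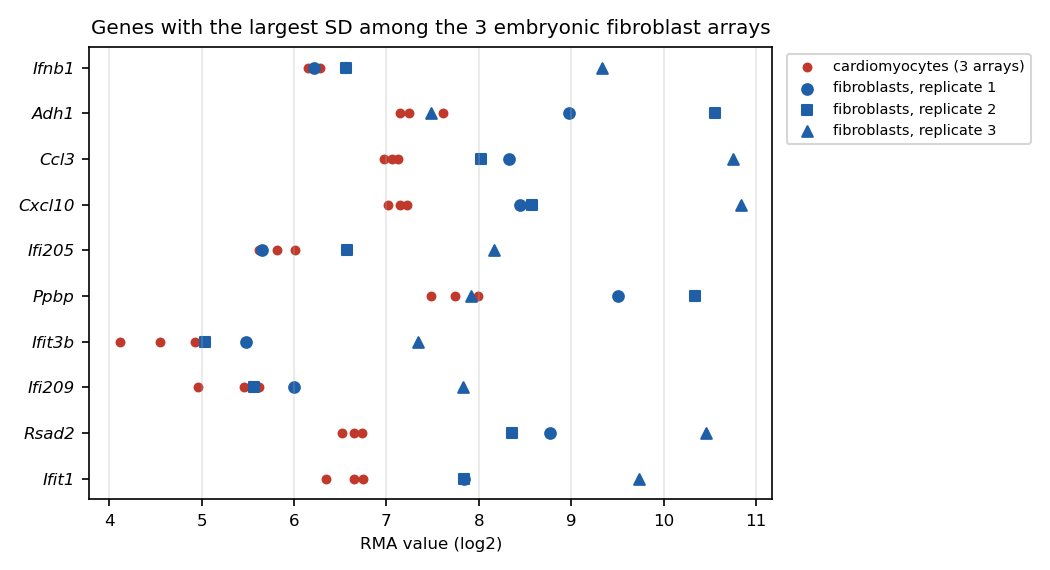
RMA values (log2, x axis) of the 10 genes with the largest SD among the 3 embryonic fibroblast arrays, with a marker shape for each fibroblast replicate and red points for the 3 cardiomyocyte arrays. Replicate 3 is the highest fibroblast array for 8 of the 10 genes and the lowest for Adh1 and Ppbp.

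Across all genes limma called 21.4% at an adjusted p under 0.05, after Benjamini-Hochberg adjustment. These were 2054 genes higher in fibroblasts, 10.3% of all genes, and 2212 lower, 11.1%. All 3 fibroblast arrays lay on the same side of all 3 cardiomyocyte arrays for 39.1% of genes, above them for 19.3% and below them for 19.8%. Without fibroblast replicate 2 the count of lower genes was 1452 (7.28%), the lowest when any single embryonic array was left out, and that of higher genes was 1448 (7.26%). Without fibroblast replicate 3 the counts were 1897 higher (9.52%) and 2155 lower (10.8%). Without replicate 3 of both fibroblast groups they were 2751 (13.8%) and 2904 (14.6%). In a fit of the 6 embryonic arrays alone they were 2611 (13.1%) and 2679 (13.4%). Both of these settings leave out adult fibroblast replicate 3, which enters the spread of the main fit. That array correlated at 0.970 with each of the other adult arrays, which correlated at 0.993 with each other. Its part in the counts was not tested.

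**Figure D3:**
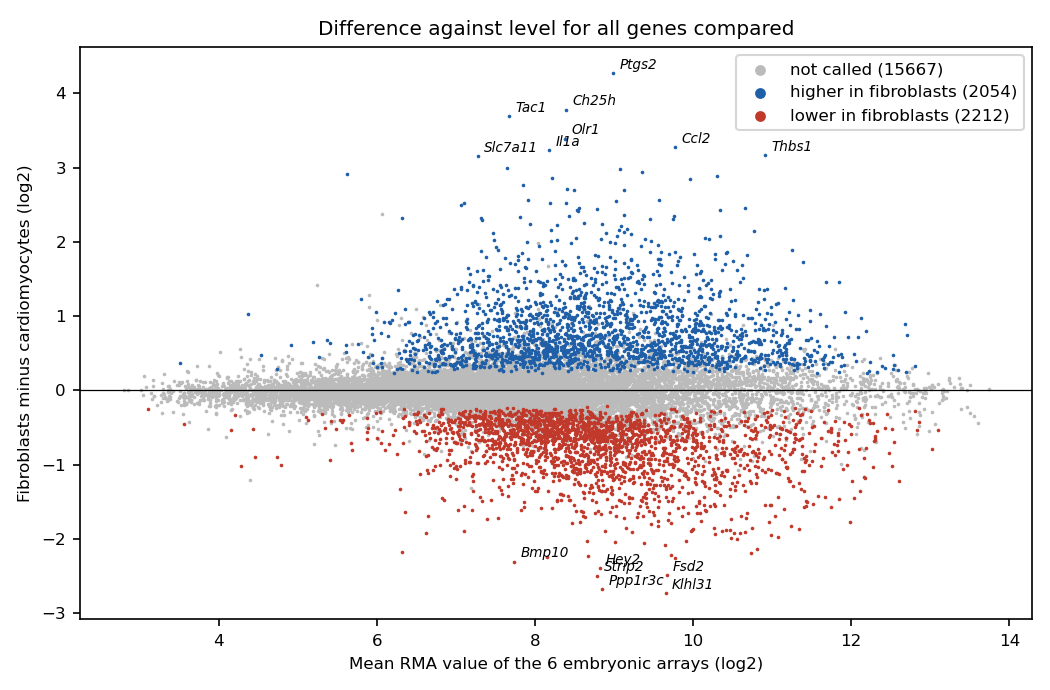
Difference between fibroblasts and cardiomyocytes (log2, y axis) against the mean RMA value of the 6 embryonic arrays (log2, x axis), with 1 point per gene. Called genes lie on both sides of 0 at all but the lowest levels, and differences reach 4.28 upward and -2.73 downward.

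The 25 genes with the largest difference in each direction were read by what they encode. They were drawn from called genes whose groups do not overlap, with predicted loci left out. All 50 kept their call when any single embryonic array was left out. At the top stood Ptgs2, the inducible prostaglandin synthase, which read 6.74, 7.02 and 6.81 in cardiomyocytes and 11.33, 11.23 and 10.83 in fibroblasts. Each fibroblast array lay more than 3 log2 units above each cardiomyocyte array. Next came Ch25h (3.78), Tac1 (3.70), Olr1 (3.39), Ccl2 (3.28), Il1a (3.24) and Thbs1 (3.16), which encode a cholesterol hydroxylase, the substance P precursor, a scavenger receptor, a monocyte chemokine, interleukin-1 alpha and a matrix glycoprotein. Tnfaip6, which encodes a hyaluronan-binding protein secreted in inflammation, read 6.19, 6.22 and 6.04 in cardiomyocytes and 8.88, 9.66 and 8.89 in fibroblasts, a 7.98-fold difference (2.996 ± 0.20, limma adjusted p = 4.80e-05). The groups did not overlap, and fibroblast replicate 2 was the highest array. Ptx3, a soluble pattern recognition molecule, differed by 2.56 ± 0.14, Anxa1, which dampens leukocyte recruitment, by 2.71 ± 0.16, and Casp4, an inflammatory caspase that senses lipopolysaccharide, by 2.698 ± 0.12. Il1rl2, the receptor of interleukin-36, differed by 2.52 ± 0.16. The receptor genes Clec4e (2.49 ± 0.31), which encodes the lectin Mincle of myeloid cells, and Lilr4b (2.46 ± 0.38), an inhibitory receptor of leukocytes, belong to cells that the macrophage markers also report. Lilr4b has a near-identical neighbour, so its probe may read both.

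Other high genes belong to stress and growth. Hmox1, the haem-degrading enzyme induced by oxidative stress, read 8.79, 8.30 and 8.51 in cardiomyocytes and 11.69, 11.70 and 10.76 in fibroblasts, a 7.19-fold difference (limma adjusted p = 0.000279). The calcium-binding S100a6 read 7.64, 7.70 and 7.39 and 10.64, 10.63 and 10.42. Its arrays agreed to within less than 0.5 in each group and lay far apart between groups. Emp1, a membrane protein of growing epithelia and fibroblasts, differed by 2.57 ± 0.19, Sgms2, a sphingomyelin synthase, by 2.87 ± 0.17, and Fabp7, a fatty acid binding protein best known from radial glia, by 2.697 ± 0.25. Fewer of these genes had an evident tie to fibroblasts. Dnah12, an axonemal dynein heavy chain gene, differed by 2.76 ± 0.18, and its second probe by 1.85. The bitter taste receptor gene Tas2r135 differed by 2.52 ± 0.15.

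At the lower end stood Klhl31, a muscle protein of the Kelch family, which read 11.09, 11.12 and 10.84 in cardiomyocytes and 7.97, 7.51 and 9.39 in fibroblasts, with replicate 3 well above replicates 1 and 2. It was followed by Ppp1r3c (-2.68), Strip2 (-2.49) and Fsd2 (-2.48), of which Ppp1r3c encodes a glycogen-targeting phosphatase subunit. Sorbs2, an adaptor at the Z-disc, read 11.87, 11.90 and 11.86 in cardiomyocytes and 9.50, 9.19 and 10.53 in fibroblasts, 4.39-fold lower (-2.14 ± 0.31, limma adjusted p = 0.00131). The cardiomyocyte arrays were almost equal and fibroblast replicate 3 lay nearest to them. Myom1, the M-band protein myomesin, differed by -2.18 ± 0.30, Trim55, a ubiquitin ligase bound to the sarcomere, by -1.998 ± 0.28, and Mylk3, the cardiac myosin light chain kinase, by -1.93 ± 0.21. Ctnna3, the alpha-catenin of the intercalated disc, differed by -2.03 ± 0.24, and Mlip, a lamin-binding protein of muscle, by -2.21 ± 0.27. Ion handling was represented by Casq2, the calcium store of the sarcoplasmic reticulum (-1.99 ± 0.28), Slc8a1, the sodium-calcium exchanger (-1.95 ± 0.20), and Fxyd1, a regulator of the sodium pump (-1.92 ± 0.33). Some of the lowest genes are less often named with the sarcomere. Adamts6, a secreted metalloprotease, read 9.995, 9.83 and 9.53 in cardiomyocytes and 7.31, 7.35 and 8.001 in fibroblasts (-2.23 ± 0.20). Ddc, the decarboxylase that makes dopamine and serotonin, read 10.78, 10.74 and 10.55 and 8.54, 8.03 and 9.24 (-2.09 ± 0.27). In both genes all fibroblast arrays lay below all cardiomyocyte arrays by a clear gap.

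**Figure D4:**
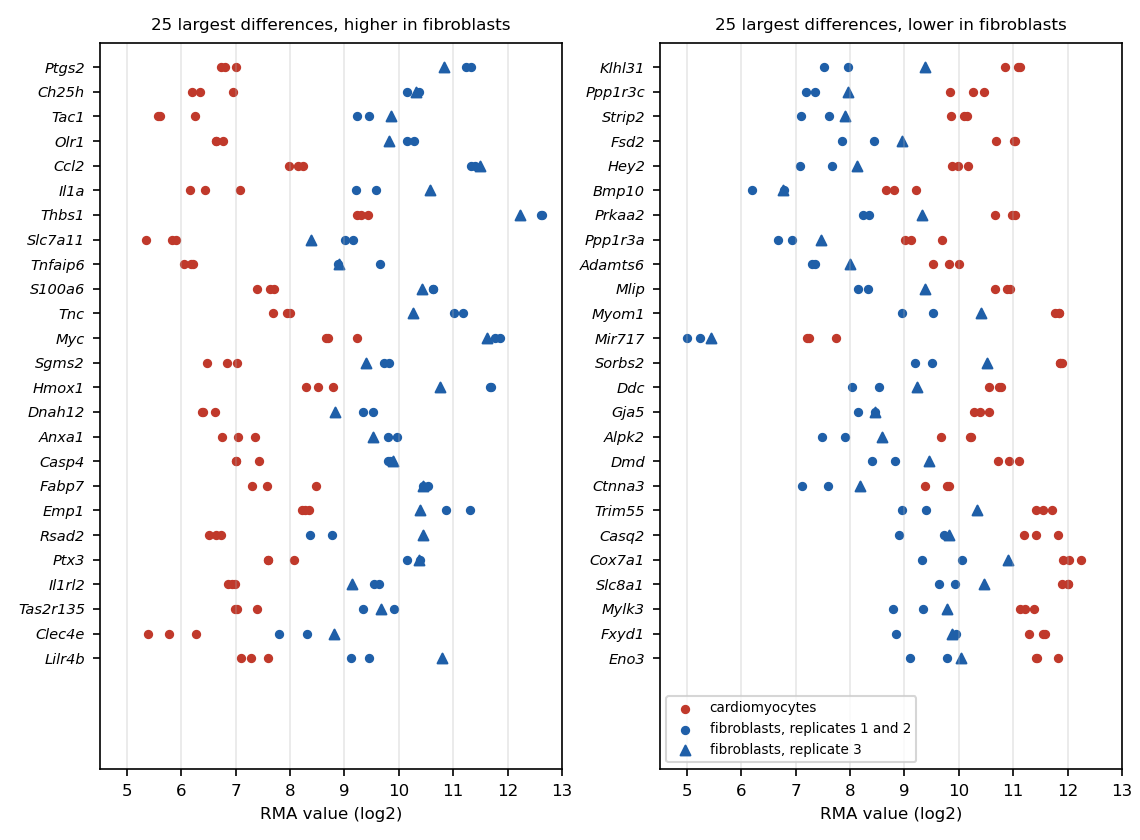
RMA values (log2, x axis) of the 25 genes with the largest difference in each direction, with 1 point per array and a triangle for fibroblast replicate 3. Only called genes whose groups do not overlap could enter, so the gap between the groups follows from the choice. Among the genes lower in fibroblasts replicate 3 usually lies nearest to the cardiomyocytes.

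Chamber genes of both atria and ventricles were often lower in fibroblasts. Of 18 atrial and sinus venosus genes 8 were lower and 1 was higher, with a median difference of -0.24 beside -0.0003 over all genes. Lower were Bmp10 (-2.30), Gja5 (-2.05), Nppa (-1.82) and Angpt1 (-1.72), which encode a growth factor of trabecular and atrial myocytes, connexin 40, atrial natriuretic peptide and angiopoietin-1. The higher gene was Nr2f2 (0.81 ± 0.11), an atrial identity factor that venous endothelium also expresses. Of 20 ventricular genes 12 were lower, with a median of -0.65. They were led by Hey2, a repressor of the compact ventricular wall (-2.39), phospholamban, Pln (-1.78), brain natriuretic peptide, Nppb (-1.56), and the small muscle protein Smpx (-1.50). Pln read 12.92, 12.95 and 12.74 in cardiomyocytes and 10.998, 10.46 and 11.82 in fibroblasts. Among conduction system genes 1 of 14 was lower (2 without cardiomyocyte replicate 1), near the share of all genes.

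Membrane anchors of the myocyte showed a split. Of 22 dystrophin complex and costamere genes 10 were lower, led by dystrophin itself, Dmd (-2.03), Sspn (-1.63) and Nrap (-1.48). Dmd read 11.11, 10.93 and 10.72 in cardiomyocytes and 8.83, 8.40 and 9.45 in fibroblasts. The higher member was Sntb2 (0.63 ± 0.12), a syntrophin expressed in many tissues. Of 21 genes of caveolae and T-tubules 8 were lower and 4 were higher. The lower group held junctophilin-2, which ties T-tubules to the sarcoplasmic reticulum (Jph2, -1.72), and the 3 Popeye-domain genes Popdc3 (-1.56), Popdc2 (-1.52) and Bves (-1.49). The higher group held Cav2 (1.28) and Bin1 (1.05) and Cav1, the main caveolin outside muscle (1.42 ± 0.35). Cav1 lost its call without fibroblast replicate 1 or 2 or cardiomyocyte replicate 2 or 3 (highest adjusted p = 0.0719), and the count of higher members was 2 without fibroblast replicate 1 or 2 or cardiomyocyte replicate 2. Cav1 is strong in endothelium, whose markers were higher in the same samples.

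Many muscle proteins have a paralogue that other cells use, which gives a comparison within a gene family. Of 28 such pairs 24 had both members measured. The muscle-type member was lower in fibroblasts in 22 pairs and not called in 2. The widely expressed member was lower in 10 pairs, higher in 4 and not called in 10. Without fibroblast replicate 2, 6 of these 10 kept their call, and 1 of the 4 higher ones kept it without fibroblast replicate 1 or 2 or cardiomyocyte replicate 2 or 3. Median differences were -1.15 for the muscle-type members and -0.34 for their paralogues, and the muscle-type difference lay below that of its paralogue in 22 pairs. The difference between the 2 members did not overlap between the groups in 20 of the 24 pairs. It was lower in fibroblasts in 19 of these 20, while the pair of Phka1 and Phka2 went the other way. Single genes separated the 2 cell types in this manner in 39.1% of cases. Alpha-actinin showed the widest contrast of the structural pairs, with Actn2 at -1.86 ± 0.18 and Actn1 at 0.70 ± 0.21. Actn2 read 12.37, 12.29 and 12.17 in cardiomyocytes and 10.45, 9.97 and 10.83 in fibroblasts, while Actn1 read 9.83, 9.84 and 9.80 and 10.61, 10.66 and 10.30. The call of Actn1 was lost without fibroblast replicate 1 or 2 or any of the cardiomyocyte replicates (highest adjusted p = 0.146). Of the 4 higher paralogues only the filamin gene Flna (1.14 ± 0.20) kept its call whichever single embryonic array was left out. Cav1, whose calls are given above, and Fabp5 did not, and Fabp5 lost its call without any array but cardiomyocyte replicate 1 (highest adjusted p = 0.113).

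Other pairs followed the same order. Dystrophin stood at -2.03 and its paralogue utrophin, Utrn, at -0.25. The elongation factor Eef1a2 of muscle and neurons stood at -1.31 and the general Eef1a1 at 0.02. Myosin light chain kinases stood at -1.93 for Mylk3 and 0.24 for Mylk. The heart fatty acid binding protein Fabp3 stood at -1.70 and Fabp5 at 0.43. Cytochrome oxidase pairs differed in size but not in sign, with Cox7a1 at -1.97 against Cox7a2 at -0.83, and Cox8b at -1.88 against Cox8a at -0.64. The muscle-type member was not the lower of the pair in 2 cases. Creatine kinases stood at -0.69 for Ckm and -0.74 for Ckb, and in phosphorylase kinase the muscle subunit Phka1 stood at -0.59 and the liver subunit Phka2 at -1.25.

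Most genes of mitochondrial oxidation were lower in fibroblasts. Of 28 genes of the tricarboxylic acid cycle and pyruvate entry 25 were lower (19 to 24 when any single embryonic array was left out), with a median of -0.97. They included Idh3a (-1.62), Got2 (-1.57), Pdk1 (-1.45) and Mdh1 (-1.43). Idh3a, the catalytic subunit of NAD-dependent isocitrate dehydrogenase, read 11.03, 11.11 and 10.77 in cardiomyocytes and 9.30, 9.05 and 9.69 in fibroblasts. The higher member was Pdp1, a phosphatase that activates pyruvate dehydrogenase (0.36 ± 0.08), whose call was lost without fibroblast replicate 1 (adjusted p = 0.0543). Of 22 genes that oxidise ketone bodies and branched-chain amino acids 19 were lower (15 to 18), with a median of -0.80, led by Hibch (-1.35), Ppm1k (-1.31) and Auh (-1.30). The higher member was Bcat1, the cytosolic transaminase of branched-chain amino acids, with 6.87, 7.19 and 6.92 in cardiomyocytes and 8.23, 8.27 and 7.97 in fibroblasts (1.17 ± 0.23).

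Many genes that make mitochondrial proteins were lower too, by a smaller amount. Of 77 mitochondrial ribosomal protein genes 51 were lower, with a median of -0.57 and the largest difference in Mrpl23 (-1.55 ± 0.12). The count was 31 without fibroblast replicate 1 or 2 or cardiomyocyte replicate 2 and 29 without cardiomyocyte replicate 1. Genes of the Timm and Tomm import families were lower in 8 of 24 cases, a count that was 5 without fibroblast replicate 1 or 2 or cardiomyocyte replicate 1. Energy buffering followed, with 11 of 19 creatine kinase, adenylate and oxygen buffer genes lower (7 without fibroblast replicate 1 or 2 or cardiomyocyte replicate 1 or 2) and myoglobin, Mb, at -1.36 ± 0.21. Cholesterol synthesis genes were lower in 8 of 20 cases, led by Nsdhl (-1.03), Idi1 (-0.97), Msmo1 (-0.82) and Hmgcs1 (-0.77). All 4 act on the way from acetyl-CoA to sterols.

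RNA-binding proteins that shape muscle transcripts differed in both directions. Rbm20, the regulator of titin splicing, was lower (-1.45 ± 0.14), as was Rbm24 (-0.72 ± 0.10). Ptbp1, a repressor of muscle exons, was higher (0.98 ± 0.17), as was its relative Ptbp3 (0.98 ± 0.09). In all 6 of 23 were lower and 5 higher, the latter count being 3 without fibroblast replicate 1 or 2 or cardiomyocyte replicate 3. Rbm20 read 9.997, 9.998 and 9.86 in cardiomyocytes and 8.54, 8.25 and 8.72 in fibroblasts, and Ptbp1 9.09, 9.06 and 9.08 and 10.25, 10.21 and 9.71, with no overlap in either gene.

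In the Notch pathway, by which neighbouring cells set each other's fate, 8 of 23 genes were higher and 1 was lower. The ligand Jag1 (1.44 ± 0.29), the inhibitor Numb (1.07 ± 0.16), the DNA-binding mediator Rbpj (0.96 ± 0.13) and the coactivator Maml2 (0.89 ± 0.12) were higher, and the target Hey2 was lower. Jag1 read 7.75, 7.52 and 7.52 in cardiomyocytes and 9.50, 9.28 and 8.31 in fibroblasts. The Hippo pathway restrains the coactivators YAP and TAZ, and 11 of 27 of its genes and targets were higher (9 to 12 when any single embryonic array was left out). Higher were the cofactor Vgll3 (2.04 ± 0.28), the kinase adaptor Mob1a (1.19 ± 0.08) and the targets Crim1 (1.14 ± 0.19) and Axl (1.11 ± 0.19). The lower gene was Ankrd1 (-1.42 ± 0.18), a YAP target that is also a cardiac muscle protein of the sarcomere. Without cardiomyocyte replicate 3 the count of lower members was 2.

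Receptors and ligands of the vessel wall and the autonomic system were read next. Of 31 genes 9 were higher and 3 lower, the latter a share below that of all genes. Edn1, which encodes endothelin-1, read 7.34, 7.30 and 7.82 in cardiomyocytes and 9.46, 9.53 and 9.63 in fibroblasts, 4.14-fold higher (limma adjusted p = 0.000147). The fibroblast arrays were near equal for Edn1, replicate 3 included. The adrenomedullin receptor genes Calcrl (1.57 ± 0.19) and Ramp2 (1.45 ± 0.13) and the endothelin receptor Ednrb (1.45 ± 0.25) were higher as well. These are genes that endothelium expresses strongly. The muscarinic receptor Chrm2, through which the vagus slows the heart, read 9.12, 8.75 and 8.67 in cardiomyocytes and 7.37, 7.06 and 8.03 in fibroblasts (-1.36 ± 0.22).

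Among receptor tyrosine kinases 14 of 35 were higher (9 without fibroblast replicate 1 or 2 or cardiomyocyte replicate 2) and 6 lower (3 without cardiomyocyte replicate 2). Pdgfra, the platelet-derived growth factor receptor of cardiac fibroblasts, differed by 1.51 ± 0.10, and Tek, the angiopoietin receptor of endothelium, by 1.61 ± 0.16. Angpt1, the ligand of Tek, was lower in fibroblasts by the value given among atrial genes. On the myocyte side stood the neuregulin receptor Erbb4, at 10.17, 10.13 and 9.92 in cardiomyocytes and 8.49, 8.32 and 8.995 in fibroblasts (-1.47 ± 0.17), with Ror1 (-0.91 ± 0.10) and the insulin receptor Insr (-0.72 ± 0.12). Feedback inhibitors of this signalling, the dual-specificity phosphatases and Sprouty proteins, were higher in 11 of 31 cases (7 without fibroblast replicate 2), led by Dusp4 (1.63), Spred1 (1.49), Spry2 (1.07) and Dusp6 (0.96). The lower member was Dusp27 (-0.88 ± 0.14), which is expressed in muscle, and without cardiomyocyte replicate 1 the count of lower members was 2.

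Innate sensing, coagulation and matrix sugars followed. Of 30 genes of toll-like and cytokine receptor signalling 12 were higher, led by Tlr4, the lipopolysaccharide receptor (2.30 ± 0.18), and Osmr, the oncostatin M receptor (1.46 ± 0.16). Tlr4 read 6.30, 6.12 and 6.13 in cardiomyocytes and 8.81, 8.55 and 8.09 in fibroblasts. Macrophage markers, of which 9 of 15 were higher, rose in the same samples, with fewer called when single arrays were left out. The macrophage marker means of the fibroblast arrays were 8.32, 8.11 and 8.47. The part of macrophages in this list was not tested. Of 17 genes of coagulation and fibrinolysis 11 were higher, a count that was 7 without fibroblast replicate 1 or 2 or cardiomyocyte replicate 2. They included tissue factor, F3 (1.52 ± 0.14), and both subunits of the annexin A2 complex that binds plasminogen, S100a10 (1.75 ± 0.37) and Anxa2 (1.37 ± 0.30). Of 34 genes that build and sulfate glycosaminoglycans 15 were higher and 3 lower. Here the paired heparan sulfatases went apart, with Sulf1 higher (1.66 ± 0.18) and Sulf2 lower (-1.03 ± 0.12). Sulf1 read 8.69, 8.16 and 8.20 in cardiomyocytes and 10.23, 10.09 and 9.73 in fibroblasts, and Sulf2 9.92, 9.83 and 9.76 and 8.85, 8.57 and 9.001. Ugdh, which makes the UDP-glucuronate these chains need, was higher (1.26 ± 0.16).

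The amino acid response, a programme of the factor ATF4, was partly higher. Of 29 genes 11 were higher, a count that was 7 without fibroblast replicate 1 or 2 or cardiomyocyte replicate 1. They were led by the cystine transporter Slc7a11 (3.15 ± 0.31), asparagine synthetase, Asns (2.05 ± 0.21), the stress protein Nupr1 (1.96 ± 0.32) and the folate enzyme Mthfd2 (1.41 ± 0.28). Asns read 9.23, 9.13 and 9.01 in cardiomyocytes and 11.15, 11.35 and 11.03 in fibroblasts. Folding and secretion genes of the endoplasmic reticulum were higher in 8 of 29 cases, led by Dnajb9 (1.02), P4hb (0.91), Sar1a (0.67) and Sec24d (0.63). P4hb is the disulfide isomerase that also serves in collagen hydroxylation. Among antioxidant genes Hmox1 (2.85) and Srxn1 (1.53) were higher, while the mitochondrial superoxide dismutase Sod2 (-1.005 ± 0.19) and the secreted peroxidase Gpx3 (-1.52 ± 0.25) were lower. The list held 5 higher and 4 lower of 19. Those counts were 2 without fibroblast replicate 1 or 2 and 3 without cardiomyocyte replicate 2 or 3 for the higher members and 2 without fibroblast replicate 1 or 2 or cardiomyocyte replicate 1 or 2 for the lower members.

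**Figure D5:**
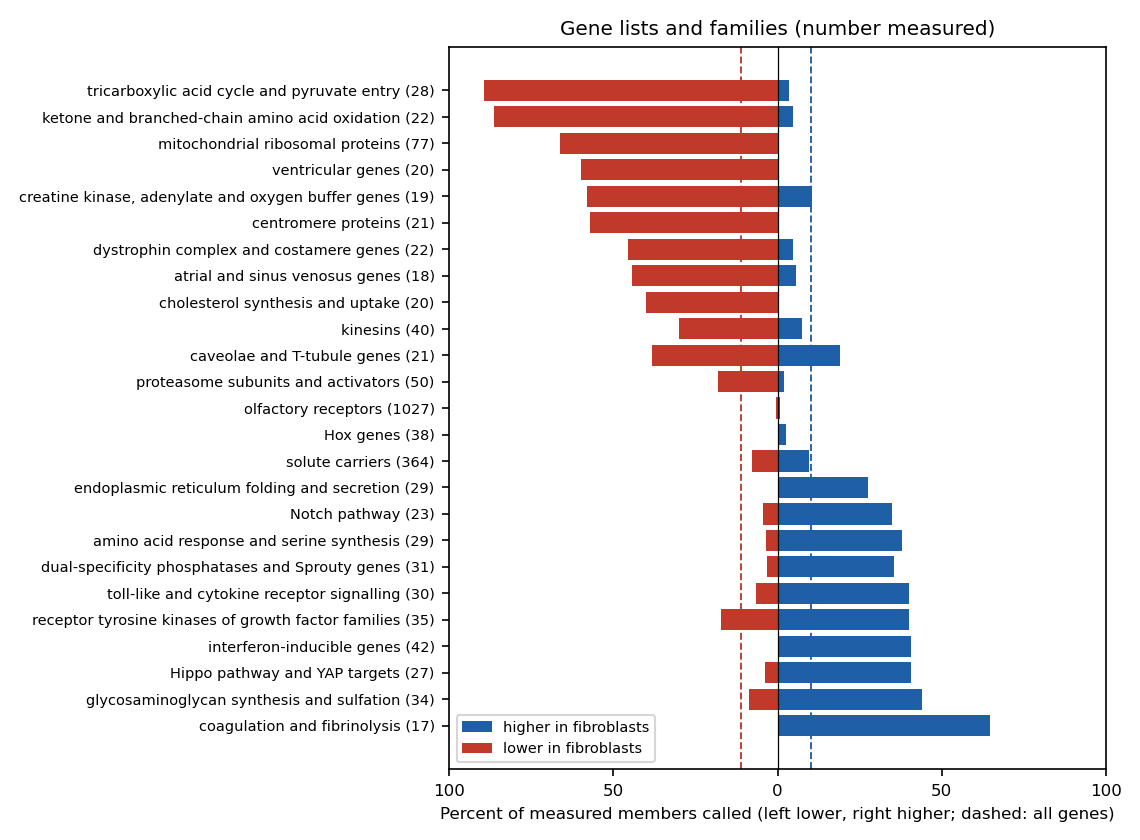
Percent of the measured members of 25 gene lists and families that were called lower (red, to the left) or higher (blue, to the right) in fibroblasts, with the number measured in brackets and dashed lines at the shares of all genes, 11.1% and 10.3%. Mitochondrial and chamber lists extend to the left and coagulation, glycosaminoglycan and signalling lists to the right, while olfactory receptors stay near 0.

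Many genes that move chromosomes were lower in fibroblasts. Of 40 kinesins 12 were lower and 3 higher. The lower ones with the largest differences, Kif2c (-1.20), Kif18a (-1.03), Kif14 (-0.97) and Kif11 (-0.97), all act on the mitotic spindle or in cytokinesis. Of 21 centromere protein genes 12 were lower, with a median of -0.56. The count of lower genes was 7 without fibroblast replicate 1 or 2 or cardiomyocyte replicate 1. Cenpf read 10.72, 10.66 and 10.41 in cardiomyocytes and 8.83, 8.91 and 9.30 in fibroblasts (-1.58 ± 0.15), with no overlap. A cell cycle element, the CHR with the letters TTTGAA, was searched within 250 bases upstream of the start, on either strand. It stood in 7 of the 23 lower kinesin and centromere genes with a RefSeq promoter (30.4%). Among all 15609 measured genes with one the share was 15.7%. The letters CCAAT, searched in the same way, stood in 11 of the 23 (47.8%), against 38.8% of all. These genes were picked for being lower, and uncalled members of the families were not searched as a set. Whether either element goes with the lower values was not tested.

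Several families stayed near or below the shares of all genes. Solute carriers were higher in 35 and lower in 28 of 364 cases, and the higher count was 21 without fibroblast replicate 1, 20 without fibroblast replicate 2 or cardiomyocyte replicate 3 and 23 without cardiomyocyte replicate 1 or 2. Olfactory receptor genes, which the heart is not known to use as a class, were higher in 7 and lower in 6 of 1027. Their higher count was 3 to 11 and their lower count 2 to 10 when any single embryonic array was left out, 11 higher without cardiomyocyte replicate 3 and 10 lower without cardiomyocyte replicate 1. Of 14 T-box genes 2 were lower, and these were the cardiac regulators Tbx5 (-1.31 ± 0.14) and Tbx20 (-0.90 ± 0.18). Among 44 Forkhead genes 4 were higher, led by Foxc2 (2.37 ± 0.26), a factor of endocardium and mesenchyme. Single members stood out in other families. Pde1a, a calmodulin-dependent phosphodiesterase, differed by 2.43 ± 0.13, the guidance receptor Plxnc1 by 1.51 ± 0.17, and S100a1, the S100 protein of cardiac muscle, by -1.66 ± 0.21. Pde1a read 7.47, 7.21 and 7.27 in cardiomyocytes and 9.75, 9.54 and 9.95 in fibroblasts.

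Interferon-inducible genes are switched on when type I interferon activates a complex that binds the interferon-stimulated response element (ISRE). A list of 42 such genes was drawn up after the spread of fibroblast replicate 3 had been seen. In fibroblasts 17 were higher, with a median of 0.83. The mean of the list was 7.13, 7.06 and 7.10 in the cardiomyocyte arrays and 7.76, 7.70 and 8.61 in the fibroblast arrays. Replicate 3 was the highest fibroblast array in 36 of the 42 genes, against 6012 of all 19933 genes (30.2%), but the list holds the genes whose spread prompted it, such as Ifnb1, Cxcl10, Rsad2 and Ifit1. The median excess of replicate 3 over the mean of replicates 1 and 2 was 0.77. Without replicate 3 the count of higher genes was 16. In Rsad2, which encodes the antiviral enzyme viperin, cardiomyocytes read 6.65, 6.73 and 6.52 and fibroblasts 8.77, 8.36 and 10.46 (2.56 ± 0.47). Ifit3 read 6.91, 6.96 and 6.61 and 8.64, 8.42 and 10.12 (2.24 ± 0.40). All fibroblast arrays lay above all cardiomyocyte arrays in both genes, with replicate 3 further above. The macrophage marker means given earlier are also highest in replicate 3, and their part in this result was not tested.

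The ISRE core, searched as GAAA, any 2 bases and GAAA on both strands, stood in the 250 bases upstream of 16 of the 33 interferon-inducible genes with a RefSeq promoter (48.5%), against 3.40% of all measured genes with one. Of the 10 genes with the largest SD in fibroblasts 5 carry the element, and the windows of the 3 that limma called are shown. They come from RefSeq on the build GRCm38.p6, run 5′ to 3′ on the strand of the gene, and have the motif in capitals, where it reads as its reverse complement if it lies on the other strand.
Ifit1 (chr19:34640755-34640843, plus strand, 134 to 46 bases before the start): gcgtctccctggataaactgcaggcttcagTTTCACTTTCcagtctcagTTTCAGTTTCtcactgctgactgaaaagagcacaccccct
Rsad2 (chr12:26456533-26456602, minus strand, 150 to 81 bases before the start): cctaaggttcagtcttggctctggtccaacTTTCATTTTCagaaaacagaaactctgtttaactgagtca
Cxcl10 (chr5:92349063-92349132, minus strand, 243 to 174 bases before the start): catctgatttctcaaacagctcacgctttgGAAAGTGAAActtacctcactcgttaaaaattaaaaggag
Ifit1 holds 2 matches. It read 6.65, 6.75 and 6.35 in cardiomyocytes and 7.84, 7.84 and 9.74 in fibroblasts, and its call was lost without cardiomyocyte replicate 1 or 3 (highest adjusted p = 0.0624). A match is a description of these letters and not a measured binding site.

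Muscle elements were searched in the same windows. The CArG box bound by serum response factor stood in 2 of 15 cardiomyocyte markers, Actc1 and Myl7, and in 2 of 21 of the genes with the largest differences downward, Myom1 and Dmd. Its share over all measured genes with a promoter was 1.45%. The windows of these 4 genes are shown with the box in capitals, in the same orientation and build, upstream of the start given in the RefSeq table.
Actc1 (chr2:114052883-114052952, minus strand, 77 to 8 bases before the start): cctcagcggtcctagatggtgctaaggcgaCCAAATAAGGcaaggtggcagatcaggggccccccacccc
Myl7 (chr11:5898804-5898873, minus strand, 91 to 22 bases before the start): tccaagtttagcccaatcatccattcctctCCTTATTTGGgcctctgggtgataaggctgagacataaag
Myom1 (chr17:71019428-71019497, plus strand, 129 to 60 bases before the start): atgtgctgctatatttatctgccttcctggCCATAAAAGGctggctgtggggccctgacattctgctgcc
Dmd (chrX:82948742-82948811, plus strand, 128 to 59 bases before the start): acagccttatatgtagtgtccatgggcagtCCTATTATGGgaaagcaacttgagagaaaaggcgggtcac
Myl7, the atrial myosin light chain, differed by -1.19 ± 0.17. Actc1, cardiac alpha-actin, differed by -0.34 ± 0.20 and was not called (limma adjusted p = 0.298). The groups did not overlap in either gene, and both SEs pool the spread of all 9 arrays. A box in the promoter thus stood beside both a called and an uncalled difference. The MEF2 motif, searched as CTA, any 4 bases and TAG, stood in 2 of the cardiomyocyte markers (13.3%, against 3.66% of all). Among the genes with the largest differences it stood in 1 of 21 downward and in 1 of 21 upward, 4.76% each. The NF-kB motif, searched as GGGA, any 4 bases and CC, stood in 23.8% of the 25 highest genes, close to the 23.0% of all.

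MicroRNA loci were read last. The arrays hold probes for 300 microRNA loci or their host transcripts, and these probes report the primary or host RNA, not the processed microRNA. Of these 16 were higher and 11 lower, shares below those of all genes. The higher count was 9 without fibroblast replicate 1 and 7 without fibroblast replicate 2 or cardiomyocyte replicate 1, and the lower count was 5 without fibroblast replicate 1 or cardiomyocyte replicate 2, 6 without fibroblast replicate 2 and 7 without cardiomyocyte replicate 1. The largest differences upward were in Mir100hg (2.01 ± 0.28), Mir350 (1.94 ± 0.27), Mir155 (1.12 ± 0.16) and Mir379 (1.03 ± 0.18). Those downward were led by Mir717 (-2.17 ± 0.15) and Mir542 (-1.35 ± 0.25), both on the X chromosome. Mir717 read 7.74, 7.26 and 7.22 in cardiomyocytes and 5.25, 5.01 and 5.44 in fibroblasts, and Mir155, the microRNA of activated immune cells, read 6.90, 6.69 and 7.17 and 8.21, 7.85 and 8.07. Neither pair of groups overlapped.

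The mature sequences of the loci with the largest differences and of Mir208a and Mir490, which lie within the cardiac genes Myh6 and Chrm2, are shown because their seeds (bases 2 to 8, in capitals) decide which messenger RNAs they can pair with. They come from RefSeq on GRCm38.p6. Among the 22 called loci with a mature sequence there, no seed was shared.
mmu-miR-350-3p (chr1:176772342-176772363, minus strand): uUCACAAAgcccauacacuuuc
mmu-miR-155-5p (chr16:84714143-84714165, plus strand): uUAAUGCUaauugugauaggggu
mmu-miR-379-5p (chr12:109709065-109709085, plus strand): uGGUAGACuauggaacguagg
mmu-miR-717 (chrX:52422461-52422482, minus strand): cUCAGACAgagauaccuucucu
mmu-miR-542-3p (chrX:53049415-53049436, minus strand): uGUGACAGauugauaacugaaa
mmu-miR-208a-3p (chr14:54949072-54949093, minus strand): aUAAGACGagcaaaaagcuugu
mmu-miR-490-3p (chr6:36421800-36421821, plus strand): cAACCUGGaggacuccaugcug
Of the 300 loci 133 lie inside a measured protein-coding gene. The host was called for 43 of these loci, lower for 25 and higher for 18, and the locus itself for 11. In 6 of them locus and host were both called, 5 in the same direction, so most called hosts held a locus that was not called. Mir208a (-0.52) lies in Myh6 (-1.35), Mir490 (-0.69) in Chrm2 (-1.36) and Mir190a (-0.25) in Tln2 (-1.09), and all were lower. Mir350 (1.94) lies in Cep170 (0.89) and Mir181b-2 (0.55) in Nr6a1 (0.47), and all were higher. Mir103-2 (0.95) was higher while its host Pank2 (-0.29) was lower. The calls of Mir208a, Mir490, Mir190a and Mir103-2 were lost on leaving out 4 or 5 of the 6 embryonic arrays in turn, with highest adjusted p-values of 0.129, 0.124, 0.145 and 0.0965. Those of the hosts Nr6a1 and Pank2 were lost without fibroblast replicate 2 or cardiomyocyte replicate 2, with highest adjusted p-values of 0.0641 and 0.0699. The largest difference downward had no such host partner, since Mir717 lies within Gpc3, a glypican gene, which differed by -0.35 ± 0.14 and was not called (limma adjusted p = 0.114).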

How the data were processed

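Total RNA of 9 mouse samples was extracted with Trizol and labelled with biotin per the labels' protocols. The authors deposited values made with RMA, per the submitters' processing notes. RMA subtracts background, puts the arrays on a common distribution and gives a single value per transcript, and it compresses the differences of dim genes. No log base or RMA version is stated there, and the deposited values, from 2.71 upward, were read here as log2. Groups came from the sample titles.

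Of 28767 probes 21776 had a single symbol in the platform annotation, and 21686 of these were held by the RefSeq gene table of GRCm38.p6. The brightest probe of a gene, by its mean over the 9 arrays, stood for that gene, which left 19933 genes. They were fitted with limma 3.58.1 (lmFit, eBayes) in R 4.3.3, with a mean per group over all 9 arrays, and p-values were adjusted by Benjamini-Hochberg at 0.05, two-sided. The fit was tested on simulated data. No filter was set on dim genes. Standard errors rest on 3 arrays per group, whose number limits the precision. Summaries and figures were made with Python 3.11.15, pandas 2.3.3 and matplotlib 3.10.9.

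The comparison, the 12 marker lists, 25 gene lists, 31 families and 28 paralogue pairs were chosen with earlier results of these data known; 64 entries of lists and markers had no measured gene. Lists of interferon-inducible genes and of microRNA loci were added after the data were seen. Genes named were drawn from the 25 largest called differences upward and the 25 downward among genes whose groups do not overlap (predicted loci left out), up to 4 called members per list and direction, the paralogue pairs, the markers, the sex-linked genes, and the 10 genes with the largest SD among fibroblast arrays. The calls of Gpc3 and of the microRNA hosts, and the values of Actc1 and Tnnt2 beside them, were read to complete a comparison. Promoters (250 bases before the start) were matched to RefSeq tables by symbol and microRNAs by gene identifier. Host genes were matched by position, without regard to strand. Promoters and mature microRNA sequences on a single chromosome were left out, and 15609 measured genes had a promoter.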

Additional observations from a re-analysis of the deposited data

How the results depend on the processing

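The 50 genes with the largest differences kept their direction and call in every alternative that tested them; leaving out dim genes (5265 genes below the 30th percentile) tested 49. With array weights limma called 3103 genes higher and 3362 lower. Leaving out each embryonic array in turn gave 1448 to 1897 higher and 1452 to 2155 lower, lowest in both cases without fibroblast replicate 2. Without replicate 3 of both fibroblast groups, chosen after seeing the data, 2751 were higher and 2904 lower. Only the 6 embryonic arrays gave 2611 and 2679, quantile normalization 2133 and 2309, centring 1950 and 2254, leaving out dim genes 2064 and 2189, and the mean of all probes 2060 and 2218. Replicate numbers did not pair the samples: deviations of same-numbered fibroblast and cardiomyocyte arrays correlated at -0.08, -0.02 and -0.20, and the replicate block gave 2059 higher and 2147 lower. Among 423 named genes, marker, pair and list members included, 1 changed sign while called: Hk1 stood at 0.03 on its brightest probe and at -0.62 (adjusted p = 0.00929) as the mean of its probes. Of these genes 34 to 76 lost their call when an embryonic array was left out, most without fibroblast replicate 2, and 0 to 19 under the other alternatives. The cause of these changes was not tested.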

Other observations

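In 3 genes a pair of probes was called with opposite signs. The transcription factor gene Camta1 stood at -1.22 ± 0.17 on one probe and at 0.67 ± 0.18 on another (SE, n = 3 per group), Filip1l at -0.64 ± 0.12 and 0.68 ± 0.09, and Zfp672 at -0.29 ± 0.09 and 1.02 ± 0.31. Such probes can lie on different transcripts of a gene, which these files do not separate.

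Many genes held exactly the same deposited value, to its 3 decimals, on several arrays of a group. At least 2 fibroblast arrays were equal in 2793 of 19933 genes and all 3 in 344, and at least 2 cardiomyocyte arrays were equal in 1950 and all 3 in 220. In Klf1 all 3 fibroblast arrays read 7.242. The SD of such a gene over the group rests on fewer than 3 distinct values and enters the variance that limma estimates. Of the 4266 called genes 420 (9.85%) had such a tie in a group, against 4331 of all genes (21.7%). The cause of the equal values was not tested.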
